A study of Mus musculus with 7 samples.

Results

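Among the 4934 regions bound by the transcription factor Runx3 in resting CD8+ T cells (CD8-TC), 203 lacked the enhancer mark H3K4me1 but lay close to it. These unmarked Runx3-bound regions were selected on the measured calls themselves: they shared no base with any H3K4me1-marked region, and the gap to the nearest one on the same chromosome was at most 10 kb from edge to edge. Of the other Runx3-bound regions, 3889 overlapped H3K4me1 and 842 were unmarked and lay over 10 kb from it. The overlap and the gap therefore describe how the regions were chosen and were not tested, whereas the TSS annotation and the DNA sequence are not part of the rule. The motif content of these regions was, however, known when the limit of 10 kb was set.

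The calls came from chromatin immunoprecipitation followed by sequencing (ChIP-seq) of splenic CD8-TC of the outbred ICR strain, purified on anti-CD8 magnetic beads. The label of each library gives 18 pooled mice. The cells were over 95% pure by the sample labels and were fixed and frozen right after isolation. Of the 7 libraries, 3 came from Runx3 immunoprecipitation in 2 repeats with an in-house polyclonal antibody, 2 from H3K4me1 with a monoclonal one, and 2 from non-immune serum (NIS), the control. The reads of the repeats were joined before regions were called, so each antibody has 1 list, no region has a replicate value, and how many reads a region rests on is unknown here. All intervals below are 95% intervals that cover counting error over regions only. A cell pool that carries the mark in some cells and Runx3 in others cannot be told apart from a pool of uniform cells.

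Runx3 is a Runt-domain protein that binds short RUNX motifs in DNA and takes part in silencing Cd4 and in the cytotoxic program of CD8-TC. ETS-family proteins are frequent partners of RUNX proteins in lymphocytes. Monomethylation of histone H3 at lysine 4 (H3K4me1) marks the nucleosomes of enhancers, and at active promoters it typically flanks the transcription start site (TSS), where the trimethylated form or a nucleosome-free stretch takes its place. CpG-rich promoters, often bound by Sp1 at GC boxes, are typical of widely expressed genes.

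The central 200 bp of 7 regions are given first. These regions are among the 10 with the most RUNX motifs, ties taken by width, of the unmarked regions near H3K4me1. They are the motif-rich end of the set and do not represent it. The RUNX motif was searched as TGTGGT or TGTGGC or TGCGGT or TGCGGC on both strands, and these matches stand in capitals. On the printed strand a match to the opposite strand reads ACCACA or GCCACA or ACCGCA or GCCGCA. Sequences are from build NCBIM37 (mm9), 5' to 3'. Gabpb1 and Slc35a1, also among the 10, are not printed because their windows touch an annotated UTR.
Hs6st1 (intron of the heparan sulfate 6-O-sulfotransferase gene, chr1:36154324-36154523, plus strand): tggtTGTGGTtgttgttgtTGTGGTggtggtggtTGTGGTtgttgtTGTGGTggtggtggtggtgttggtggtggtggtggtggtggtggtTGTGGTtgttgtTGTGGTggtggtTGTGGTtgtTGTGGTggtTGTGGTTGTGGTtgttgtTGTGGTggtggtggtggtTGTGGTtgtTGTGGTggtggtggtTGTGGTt
Fam71f1 (intron, chr6:29276978-29277177, plus strand): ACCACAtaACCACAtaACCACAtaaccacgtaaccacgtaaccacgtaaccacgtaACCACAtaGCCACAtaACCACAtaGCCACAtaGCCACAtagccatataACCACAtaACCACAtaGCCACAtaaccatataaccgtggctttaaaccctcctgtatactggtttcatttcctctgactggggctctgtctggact
Dhrs2 (intergenic, chr14:55823930-55824129, plus strand): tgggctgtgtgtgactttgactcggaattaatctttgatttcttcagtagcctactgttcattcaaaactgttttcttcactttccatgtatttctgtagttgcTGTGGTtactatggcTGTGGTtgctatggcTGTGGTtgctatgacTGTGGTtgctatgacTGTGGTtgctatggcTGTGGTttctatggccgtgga
Apol9a (intron of an apolipoprotein L gene, chr15:77237028-77237227, plus strand): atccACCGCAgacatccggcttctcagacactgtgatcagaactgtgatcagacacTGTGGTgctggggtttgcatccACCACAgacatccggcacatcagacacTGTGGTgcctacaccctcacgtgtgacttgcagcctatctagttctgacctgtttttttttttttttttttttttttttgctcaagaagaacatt
Kdm3a (intergenic, 5806 bp upstream of the gene for a histone H3 lysine 9 demethylase, chr6:71588605-71588804, plus strand): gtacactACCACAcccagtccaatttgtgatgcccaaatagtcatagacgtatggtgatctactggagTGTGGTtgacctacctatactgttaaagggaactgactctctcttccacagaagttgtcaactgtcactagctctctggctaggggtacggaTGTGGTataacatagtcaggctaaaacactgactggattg
Tgif1 (768 bp upstream of the nearest TSS, inside an intron of another transcript of this homeodomain repressor gene, chr17:71201742-71201941, plus strand): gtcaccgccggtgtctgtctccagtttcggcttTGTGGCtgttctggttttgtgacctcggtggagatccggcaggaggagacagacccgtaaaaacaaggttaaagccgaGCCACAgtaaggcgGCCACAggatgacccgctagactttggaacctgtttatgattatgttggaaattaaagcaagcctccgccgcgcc
Samhd1 (intron, 410 bp downstream of the TSS of a gene for a dNTP-degrading enzyme, chr2:156960163-156960362, plus strand): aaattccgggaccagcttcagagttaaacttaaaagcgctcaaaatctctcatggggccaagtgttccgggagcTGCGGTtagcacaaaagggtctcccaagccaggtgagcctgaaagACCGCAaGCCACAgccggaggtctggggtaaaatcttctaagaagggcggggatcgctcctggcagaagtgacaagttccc

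The 7 printed sequences were of unlike kinds. The Hs6st1 window held 14 motifs and the Fam71f1 window 11, in both cases as tandem copies of a short unit, and the Dhrs2 window held 6 in a repeated stretch. The Apol9a window also held 4 motifs in a duplicated stretch. By contrast, the 3 motifs of the Kdm3a, Tgif1 and Samhd1 windows formed no tandem array, although 2 of those of Samhd1 were 1 base apart. In the Hs6st1 region 70.5% of the 32-mers occurred once in the genome, and in the Apol9a region 63.4%.

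The question of the first comparison was where in the genome these regions lay. They fell into promoters and distal DNA in similar numbers. The midpoint of 95 of the 203 regions (46.8%, interval 40.1 to 53.7%) was under 1 kb from a TSS, beside 4.18% of positions taken every 100 kb of the genome. Among regions with H3K4me1 the share was 905 of 3889 (23.3%), and among unmarked regions over 10 kb away it was 22 of 842 (2.61%). A further 12.8% lay 1 to 5 kb, 32.5% lay 5 to 50 kb and 7.88% lay over 50 kb from a TSS. The odds of lying under 1 kb from a TSS were 2.90 times those of regions with H3K4me1 (interval 2.18 to 3.86, two-sided Fisher's exact test, adjusted p = 1.09e-12 over the 2 comparisons). They were 32.8 times those of the remote unmarked regions (interval 19.8 to 54.3, adjusted exact p = 2.95e-55). H3K4me1 typically flanks the TSS of active promoters, so the rule can bear on these contrasts through its distance limit. Its part in them was not tested. The unmarked regions near H3K4me1 were therefore described separately as 95 promoter-proximal and 108 distal regions, a split made after the data were seen.

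Promoter-proximal and distal regions had different gaps to the mark. The gap had a median of 83 bp (interval 57 to 163 bp) in the 95 promoter-proximal regions and of 2796 bp (interval 2082 to 3913 bp) in the 108 distal regions. A gap of at most 100 bp was found in 54 promoter-proximal regions and 12 distal regions, a gap of over 100 bp and up to 1 kb in 36 and 18, and a gap over 5 kb in 3 and 33. H3K4me1 therefore adjoined most promoter-proximal regions, whereas it lay kilobases away from most distal ones. Since the gap was part of the rule, it is described and not tested.

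**Figure D1:**
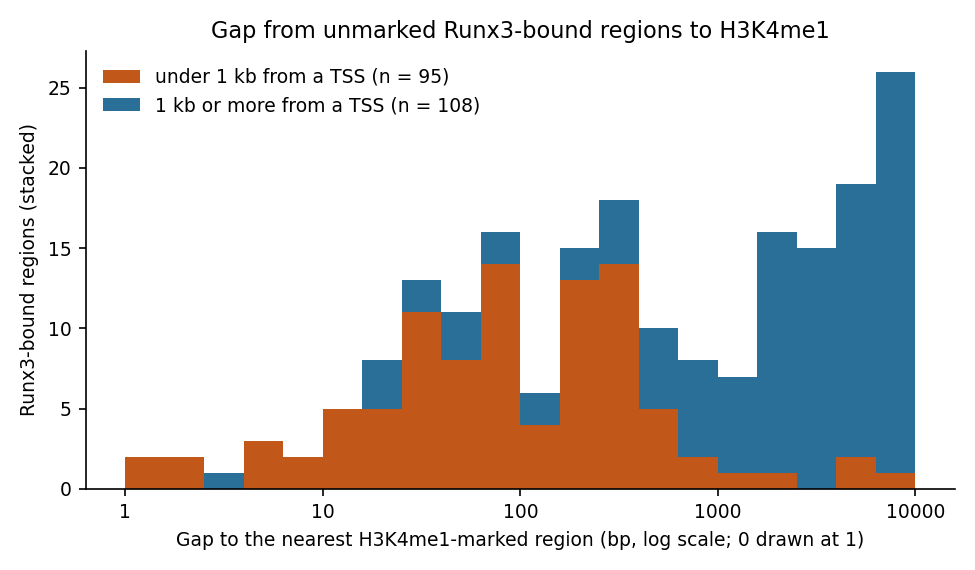
Gap in bp (log scale, a gap of 0 drawn at 1) between each of the 203 unmarked Runx3-bound regions and the nearest H3K4me1-marked region, stacked by distance of the midpoint from a TSS. The 95 promoter-proximal regions (orange) have a median gap of 83 bp and the 108 distal regions (blue) of 2796 bp.

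The mark stood on both sides of most promoter-proximal regions. H3K4me1 lay within 10 kb on both sides of 74 of the 95 (77.9%, interval 68.6 to 85.1%), and within 1 kb on both sides of 57 (60.0%). Of the 108 distal regions, 28 (25.9%, interval 18.6 to 34.9%) had it within 10 kb on both sides, and 2 within 1 kb. Where both sides were marked within 10 kb, the flanking marked regions stood 1431 bp apart at promoters (median, n = 74, interval 1194 to 1639 bp) and 7809 bp apart elsewhere (n = 28, interval 5178 to 10143 bp).

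The cover around promoters was uneven along the direction of transcription. On the transcribed side, 93 of the 95 promoter-proximal regions had H3K4me1 within 10 kb and 80 within 1 kb, with a median gap of 261 bp (interval 164 to 338 bp). On the upstream side, 76 had it within 10 kb and 67 within 1 kb, with a median gap of 365 bp (interval 228 to 570 bp). The intervals of the medians overlap, and the downstream side was the nearer one in 53 regions and the upstream side in 42. The cover reached 78.0% of bases 1250 to 1500 bp downstream of the midpoint and 56.5% at 1000 to 1250 bp upstream. In the distal regions it stayed below 20% at every distance up to 10 kb, with a highest value of 19.7%.

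**Figure D2:**
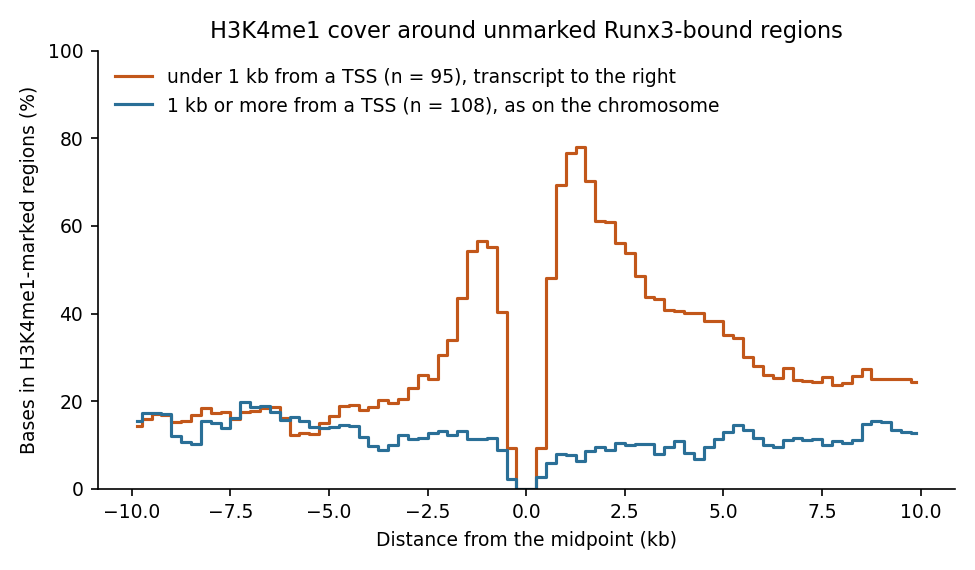
Share of bases inside H3K4me1-marked regions (%) against the distance from the midpoint of the unmarked Runx3-bound regions in kb, in steps of 250 bp. Promoter-proximal regions (orange, n = 95, transcribed side to the right) show shoulders of up to 78.0% downstream and 56.5% upstream, and distal regions (blue, n = 108, in chromosome direction) peak at 19.7%.

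The regions with the smallest gaps to the mark were promoters. At Fam33a, a gene for a spindle and kinetochore protein, the Runx3-bound region chr11:86922260-86923250 began at the base next to the marked region chr11:86921252-86922259, and on its other side the gap was 31 bp. At Sp1, which encodes the GC-box-binding factor, the region chr15:102235700-102236822 lay 1 bp from one marked region and 413 bp from the other. At Rpl37, which encodes a protein of the large ribosomal subunit, the gaps of chr15:5066039-5066920 were 2 and 271 bp. A gap of 2 bp was shared by Gabpb1, described next. These regions ended within 2 bp of the mark on one side, and the first 3 had it within 413 bp on the other.

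The widest of the 203 regions, 1191 bp (chr7:25668725-25669915), covered the TSS of Rps19, a gene of the small ribosomal subunit. It had H3K4me1 56 bp away on one side and none for 33074 bp on the other. The promoter of Eif2s1, the alpha subunit of translation initiation factor eIF2, was bound over 1046 bp (chr12:79962214-79963259) with gaps of 30 and 283 bp. The promoter of the autophagy receptor gene Nbr1 was bound over 1070 bp (chr11:101413434-101414503) with gaps of 261 and 12 bp. At Gabpb1, which encodes a subunit of the ETS factor GABP, a region of 1047 bp (chr2:126500872-126501918) carried 7 RUNX motifs, 3 of them in its central 200 bp, and ended 2 bp from H3K4me1. The next widest region after that of Rps19, 1171 bp (chr2:139867944-139869114), lay in an intron of the protease gene Tasp1, 579 bp upstream of the nearest annotated TSS and 23967 bp from that of a protein-coding transcript, with a gap of 419 bp. At Refbp2 a region of 1084 bp (chr1:173432979-173434062) had gaps of 649 and 69 bp and no RUNX motif. Of the 10 widest regions, 3 were distal, in introns of Cdc42bpa (a Cdc42 effector kinase gene), Reck (a gene for a membrane-anchored protease inhibitor) and Gm15024. Other promoters named after their values were seen were those of Atm, the DNA damage kinase gene, with gaps of 41 and 365 bp, and Mcm4, a subunit of the replicative helicase, with gaps of 103 and 21 bp.

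At the far edge of the rule, the gaps of the last 3 regions inside were 9548 bp (near 1700040L02Rik), 9561 bp (in an intron of Tomm70a, a mitochondrial import receptor gene) and 9810 bp (near Psmd4, a proteasome subunit gene). The next 3 regions outside had gaps of 10261, 10289 and 10375 bp. At the near edge, the promoters of Mphosph10, Rad23b and Txnl4b shared 2, 4 and 7 bp with H3K4me1 and so counted as marked. On the side without shared bases, the next marked region was 93 bp away at Mphosph10, 510 bp at Rad23b and 66 bp at Txnl4b.

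Base composition separated the promoter-proximal from the distal regions. The median GC content was 57.6% (interval 55.9 to 59.8%) in the first and 41.6% (interval 40.8 to 43.5%) in the second, and the median ratio of observed to expected CpG was 0.77 and 0.19. With CpG-rich taken as a GC content of at least 50% and a CpG ratio of at least 0.6, 73 of 95 promoter-proximal regions (76.8%) and 5 of 108 distal regions (4.63%) were CpG-rich. Regions with H3K4me1 under 1 kb from a TSS were CpG-rich in 426 of 905 cases (47.1%), so unmarked promoters had the higher odds (odds ratio 3.73, interval 2.28 to 6.12, Fisher's exact test, adjusted p = 1.11e-07 over 16 tests of this kind). The 5 distal CpG-rich regions also exceeded the 0.570% of their marked counterparts (odds ratio 8.47, interval 3.07 to 23.4, adjusted exact p = 0.00138). One of them stood 1089 bp upstream of the TSS of Prpf4b, 24 bp from H3K4me1. A TSS lay inside the region in 82.1% of unmarked and 79.1% of marked promoter-proximal regions, a difference that did not pass the test (odds ratio 1.21, interval 0.700 to 2.10, adjusted exact p = 0.679) and whose direction turned when protein-coding transcripts alone were used.

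**Figure D3:**
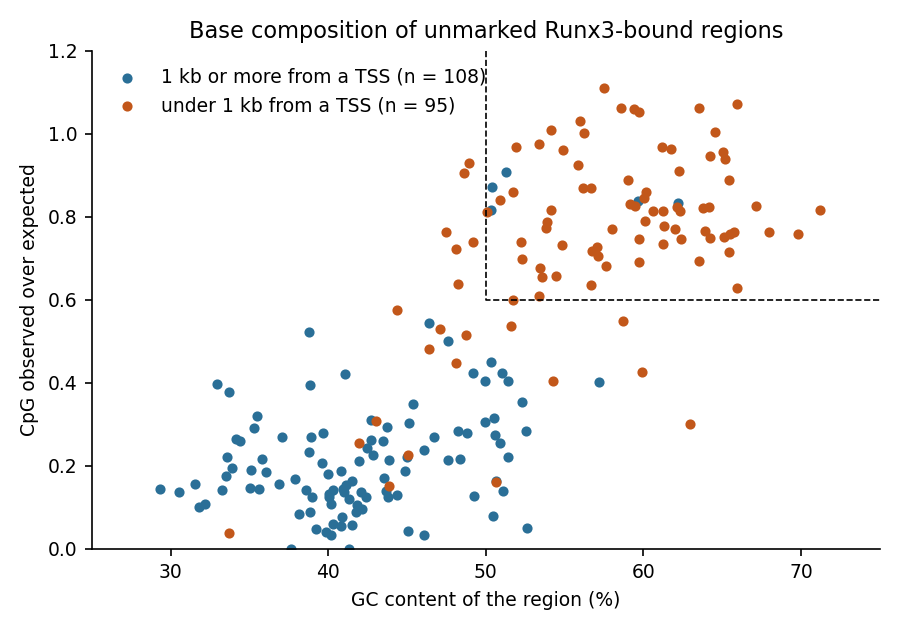
GC content (%) and ratio of observed to expected CpG of the 203 unmarked Runx3-bound regions, 1 point per region. Dashed lines bound the CpG-rich class, which holds 73 of 95 promoter-proximal regions (orange) and 5 of 108 distal regions (blue).

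The next comparison asked whether the regions held RUNX motifs at their centre. They did so more often than the DNA around them and less often than marked Runx3-bound regions. The central 200 bp held a RUNX motif in 115 of the 203 regions (56.7%, interval 49.8 to 63.3%), beside 24.9% of windows of that length taken every 100 kb of the genome. In windows of the same length 5 kb on either side of the same regions, 117 of 406 (28.8%) held a motif. These flank windows were pooled, so their pairing with a region was not used in the test. The odds ratio was 3.23 (interval 2.27 to 4.59, two-sided Fisher's exact test, p = 4.04e-11). Regions with H3K4me1 held the motif in 2948 of 3889 cases (75.8%, odds ratio 0.42, interval 0.313 to 0.556, exact p = 6.31e-09), and remote unmarked regions in 190 of 842 (22.6%, odds ratio 4.48, interval 3.25 to 6.18, p = 4.99e-20). Among regions under 1 kb from a TSS the contrast with remote regions did not pass, at 54.7% and 36.4% (odds ratio 2.12, interval 0.812 to 5.52, exact p = 0.157). Because the limit of 10 kb was set with the motif content known, the contrasts with flanks, marked and remote regions are not independent evidence.

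Motif density along the DNA gave the same order. Within 100 bp of the midpoint the unmarked regions near H3K4me1 held 5.10 RUNX motifs per kb, compared with 1.61 per kb at 2 to 2.5 kb. The marked regions rose from 1.76 to 6.24 per kb and the remote unmarked regions from 1.16 to 1.51 per kb. The rise was 4.16 times in the distal regions and 2.30 times in the promoter-proximal ones. The distal regions include the repeated stretches of Hs6st1, Fam71f1, Dhrs2 and Apol9a, which also raise the density over all 203 regions. Densities without them were not computed. The nearest motif lay 82 bp from the midpoint (median, interval 64 to 99 bp), compared with 46 bp in marked and 301 bp in remote regions. The mirrored motif (TGGTGT or CGGTGT or TGGCGT or CGGCGT) has the same single-base composition. Its forms CGGTGT and CGGCGT hold more CpG than the forms they mirror, so it is not matched for CpG. Its letters were present in 47 of the 203 central windows (23.2%) and 65 of the 406 flanks. The letters did not pass Fisher's exact test there (adjusted p = 0.0647 over 22 motifs). They did pass the test against the remote regions, at 12.0% (odds ratio 2.21, adjusted exact p = 0.000363), and, in the promoter-proximal regions alone, against flanks, at 31.6% and 17.9% (odds ratio 2.12, adjusted exact p = 0.0289). In the distal regions they stood at 15.7% and in their flanks at 14.4% (odds ratio 1.11, interval 0.586 to 2.12). The excess of RUNX letters over remote regions, and over flanks at promoters, thus came with a smaller excess of the mirrored letters.

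**Figure D4:**
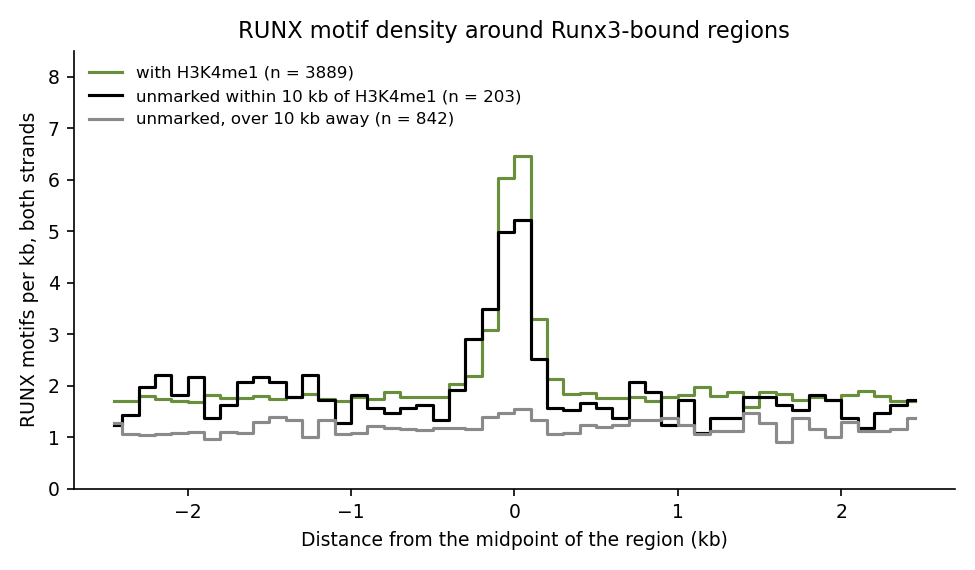
RUNX motifs per kb on both strands against distance from the midpoint in kb, in steps of 100 bp, for unmarked regions near H3K4me1 (black, n = 203), regions with H3K4me1 (green, n = 3889) and remote unmarked regions (grey, n = 842). Within 100 bp the densities are 5.10, 6.24 and 1.51 per kb.

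A central motif did not follow the gap in a simple order. It was present in 35 of 66 regions with a gap of at most 100 bp, in 64.8% of 54 with a gap up to 1 kb, in 59.6% of 47 with a gap up to 5 kb and in 47.2% of 36 with a gap up to 10 kb, and these 4 intervals all overlap. Even the farthest class lay above the 22.6% of the remote regions. Promoter-proximal and distal regions held the motif at 54.7% and 58.3% (odds ratio 0.86, interval 0.495 to 1.51, adjusted exact p = 0.716). Both stood below their marked counterparts, at 71.0% (odds ratio 0.49, interval 0.321 to 0.757, adjusted exact p = 0.00237) and 77.2% (odds ratio 0.41, interval 0.279 to 0.610, adjusted p = 5.95e-05).

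The form of the motif differed between promoters and distal DNA, in a comparison added after the data were seen. TGTGGT was less frequent in promoter-proximal than in distal regions (odds ratio 0.20, interval 0.0989 to 0.414, Fisher's exact test, adjusted p = 1.65e-05 over the 4 forms), whereas TGCGGT (odds ratio 6.41, interval 2.51 to 16.4, adjusted exact p = 5.56e-05) and TGCGGC (odds ratio 4.88, interval 1.56 to 15.3, adjusted exact p = 0.00477) were more frequent. TGTGGC, at 14.7% and 22.2%, did not pass (odds ratio 0.60, interval 0.293 to 1.25, adjusted exact p = 0.208). In the distal regions TGTGGT was the most frequent form, present in 45 of 108 windows (41.7%) and 18.1% of their flanks (odds ratio 3.24 with an interval of 1.93 to 5.43, two-sided Fisher's exact test, adjusted p = 3.21e-05 over the 4 forms). In the promoter-proximal regions TGTGGT was present in 12 of 95 (12.6%) and 17.4% of flanks (adjusted exact p = 0.389), and the CpG-containing TGCGGT in 26 of 95 (27.4%) and 1.05% of flanks (odds ratio 35.4, interval 8.19 to 153, adjusted p = 2.44e-11). The form TGCGGC was present in 15.8% of promoter-proximal windows and 2.11% of flanks (odds ratio 8.72, interval 2.81 to 27.1, adjusted exact p = 6.63e-05). Promoters marked with H3K4me1 carried TGTGGT in 36.5% of windows and TGCGGT in 22.2%.

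Flanks 5 kb away are poorer in CpG than promoters, so the CpG-rich promoter windows were also set beside 19971 windows centred on CpG-rich TSSs of protein-coding transcripts outside Runx3-bound regions, a comparison added after the data were seen. TGCGGT was present in 23 of the 73 bound windows (31.5%) and in 7.81% of these TSS windows (odds ratio 5.43, interval 3.31 to 8.93, Fisher's exact test, adjusted p = 5.77e-08 over 13 sets of letters). Its mirrored form TGGCGT stood at 9.59% and 9.02% (odds ratio 1.07, interval 0.490 to 2.34, adjusted exact p = 0.907). TGCGGC, at 17.8% and 24.1%, did not pass the test (odds ratio 0.68, interval 0.374 to 1.24, adjusted exact p = 0.487), and neither did the 4 RUNX forms together, at 54.8% and 41.4% (odds ratio 1.72, interval 1.08 to 2.72, adjusted p = 0.0762). The TSS windows were centred on the TSS and the bound windows on the region, and TSSs of 1 gene that lie close together share bases, so these windows are not independent.

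Motifs of other factors were compared next. The ETS motif (AGGAAA or AGGAAG or CGGAAA or CGGAAG) was found in 69 of 95 promoter-proximal regions (72.6%) and 48 of 108 distal regions (44.4%, odds ratio 3.32, interval 1.84 to 5.98, adjusted exact p = 0.000142). Genome windows held it at 41.6%. Distal regions fell short of the marked distal regions, at 69.9% (odds ratio 0.34, interval 0.234 to 0.508, adjusted exact p = 3.40e-07), whereas promoter-proximal regions did not differ beyond the test from marked ones, at 67.4% (odds ratio 1.28, interval 0.801 to 2.06, adjusted p = 0.438). In CpG-rich promoter windows the motif was present at 76.7%, beside 49.6% of the CpG-rich TSS windows (odds ratio 3.35, interval 1.94 to 5.76, adjusted exact p = 1.90e-05). The Slc35a1 promoter, a gene for a CMP-sialic acid transporter, carried 5 ETS and 3 RUNX motifs in its central window, and that of the Rps19 promoter 5 ETS motifs but no RUNX motif, with 3 RUNX motifs elsewhere in the region.

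ETS and RUNX motifs stood within 50 bp of each other in 17 of 108 distal regions (15.7%), compared with 1214 of 2984 marked distal regions (40.7%, odds ratio 0.27, interval 0.161 to 0.460, adjusted exact p = 2.38e-07). At promoters the shares were 25.3% unmarked and 34.8% marked (odds ratio 0.63, interval 0.391 to 1.03, adjusted exact p = 0.0994). In distal DNA both single motifs were less frequent in unmarked regions, which by itself lowers the share of such pairs. Spacing apart from this was not tested. Either motif was present in 168 of the 203 central windows (82.8%), in 92.6% of marked regions and in 52.9% of remote ones. Of the unmarked regions near H3K4me1, 64 (31.5%) carried both.

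The GC box GGGCGG, the core of Sp1 sites, was present in 40 of 95 promoter-proximal regions (42.1%) and 5 of 108 distal ones (4.63%). Marked promoter-proximal regions held it at 24.5% (odds ratio 2.24, interval 1.45 to 3.46, adjusted exact p = 0.00102), and 1.96% of genome windows did. CpG-rich TSS windows outside Runx3-bound regions held it more often, at 66.5%, than the 45.2% of the CpG-rich bound windows (odds ratio 0.42, interval 0.262 to 0.659, adjusted exact p = 0.00109).

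**Figure D5:**
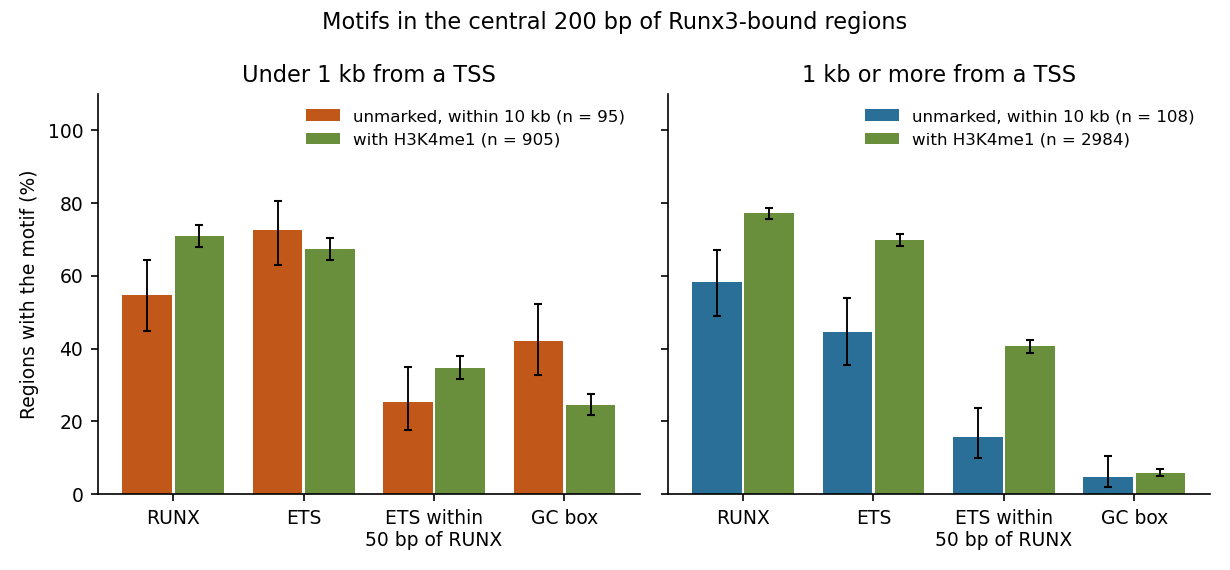
Share of regions (%) whose central 200 bp hold a RUNX motif, an ETS motif, an ETS motif within 50 bp of a RUNX motif, or a GC box, with 95% Wilson intervals as error bars. Left, regions under 1 kb from a TSS (95 unmarked, 905 marked). Right, regions 1 kb or more from a TSS (108 unmarked, 2984 marked), where RUNX and ETS shares of unmarked regions are 58.3% and 44.4%, compared with 77.2% and 69.9%.

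Of 22 motifs compared in all 203 regions, 5 passed an adjusted p of 0.05 against marked regions: RUNX, ETS and the E-box (CAGGTG or CAGCTG, 13.3% and 25.5%, adjusted exact p = 0.000297) were less frequent, and the GC box and the NF-kB motif (GGGNTTTCC or GGAANTTCC, 4.93% and 1.75%, odds ratio 2.91, adjusted p = 0.0208) were more frequent. With distance from a TSS held, the ETS call (odds ratio 0.60 over all regions) ended at promoters, where its direction turned (72.6% and 67.4%, odds ratio 1.28, adjusted exact p = 0.559 over the 22 motifs). The NF-kB call ended at promoters (7.37% and 2.65%, odds ratio 2.92, interval 1.22 to 6.97, adjusted exact p = 0.160), with an odds ratio that did not shrink. It also ended in distal DNA (2.78% and 1.47%, odds ratio 1.91, interval 0.583 to 6.25, adjusted exact p = 0.529). The E-box call ended at promoters (14.7% and 21.7%, odds ratio 0.63, adjusted exact p = 0.460). The GC box call ended in distal DNA, where its direction turned (4.63% and 5.90%, odds ratio 0.77, interval 0.312 to 1.92, exact p = 0.833). A motif of RBPJ, the DNA-binding factor of Notch signalling, searched as GTGGGAA, passed in distal DNA alone. It was found in 0 of 108 unmarked regions, which allows a share of up to 2.78%, and in 160 of 2984 marked ones (5.36%, adjusted exact p = 0.0340), beside 7.37% and 4.42% at promoters (adjusted exact p = 0.489). Genome windows held the E-box at 18.2% and the NF-kB motif at 0.834%. Against their own flanks 10 motifs passed, and against remote unmarked regions 11. The remote regions had a median GC content of 36.1%, compared with 49.2% here and 47.3% in marked regions, and composition was compared only through the mirrored letters, the CpG-rich TSS windows and the split by distance from a TSS. Against flanks, 11 motifs passed in the promoter-proximal regions alone, whereas RUNX was the single motif that passed in the distal regions alone, where the ETS motif stood at 44.4% and 44.0% (odds ratio 1.02, interval 0.640 to 1.62). A RUNX match can overlap the KLF motif GGGTGTGG, which ends in letters of TGTGGT, and the longer ETS motif (CCGGAAGT or CAGGAAGT, 9.85% of regions and 1.48% of genome windows) contains the shorter one.

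Few of the regions lay at genes known for roles in T cells. From 7 lists of such genes (28 T-cell receptor and co-receptor genes, 48 of receptor signalling, 38 of cytokine receptors and signalling, 31 of effector and inhibitory function, 29 of homing, 25 of survival and metabolism and 79 of transcription factors), the host or nearest gene of 7 of 203 regions was a member (3.45%, interval 1.68 to 6.95%), beside 10.2% of all Runx3-bound regions. The share was 12.6% for regions with H3K4me1 and 0.831% for remote unmarked regions. At promoters it was 3.16% unmarked and 7.85% marked, and in distal DNA 3.70% and 14.1%. The lists were drawn up with earlier results in view, so these shares are a description.

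Of the 7 regions, 3 were promoters of transcription factor genes. At Klf2, which maintains quiescence and homing of naive T cells, chr8:74842640-74843342 lay over the first part of the gene, with H3K4me1 304 bp away on one side and 2208 bp on the other, and held 1 central RUNX motif. At Egr2, an early gene of T-cell receptor stimulation, chr10:66999553-67000538 had gaps of 148 and 47 bp and 2 central motifs. At Lef1, a partner of beta-catenin in naive T cells, chr3:130815696-130816428 lay in an intron with gaps of 609 and 1626 bp and had no central motif but 1 in the region.

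The other 4 were distal. At Btg2, an antiproliferative gene, chr1:135974056-135974748 lay in an intron 1295 bp downstream of the TSS, 59 bp from a marked region of 7827 bp. A region 5013 bp upstream of Rgs2, a regulator of G-protein signalling (chr1:145855927-145856680), had a gap of 886 bp. A region 14538 bp downstream of the nearest annotated TSS of Tnfaip3, the gene of the NF-kB inhibitor A20 (chr10:18713721-18714504), had a gap of 2290 bp and no RUNX motif in its whole width. A region 102127 bp upstream of Klf6, a zinc finger factor gene (chr13:5758213-5759002), had a gap of 831 bp and 1 motif.

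Most of the unmarked regions stood alone as Runx3 sites. Another Runx3-bound region lay within 10 kb of 27 of the 203 (13.3%, interval 9.30 to 18.7%), compared with 23.6% of marked and 2.38% of remote regions. That neighbour carried H3K4me1 in 25 of the 27 cases, and in the other case, at AW549877, 2 unmarked regions were neighbours of each other 5828 bp apart. At Elk4, an ETS factor gene named after its values were seen, the unmarked promoter lay 1927 bp from a Runx3-bound region. The regions were narrower than marked ones, at a median of 746 bp (interval 717 to 768 bp) compared with 881 bp, and close to the remote ones at 727 bp. A wider region is more likely to touch a mark, so width bears on the rule and was not tested.

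The uniqueness of the DNA, which decides whether a read is kept, was high in most regions. The median share of 32-mers that occurred once in the genome was 100% (interval 99.6 to 100%), but 16 of 203 regions (7.88%) were under 80%, beside 1.90% of marked and 3.21% of remote regions. They included Hist1h4h, a histone H4 gene of a multigene cluster (66.9%), and a pair of regions at the paralogs Art2b and Art2a-ps (44.5% and 39.9%), where gene copies could not be separated well. The part of lost H3K4me1 reads in leaving these 16 regions unmarked was not tested. Without them the RUNX odds ratio was 3.24 against flanks (interval 2.25 to 4.67) and 0.41 against marked regions (interval 0.302 to 0.548).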

How the data were processed

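ChIP-seq of resting splenic CD8-TC was analysed from the deposited lists of Runx3-bound and H3K4me1-marked regions. The authors aligned reads with ELAND to mm9, kept uniquely aligned reads, joined the repeats of each antibody and called regions with MACS using NIS as control, scaling the larger data set to the smaller. The submitters' processing notes also name CASAVA 1.6 and 1.7. The deposited values are chromosome, start and end, with no score, count or p-value, so the depth of single regions is unknown here.

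Starts were moved by 1 bp to browser coordinates. Positions were read with the NCBIM37 sequence, which has the chromosome lengths of mm9, and the GENCODE vM1 annotation. Distance to a TSS was measured from the midpoint over all transcripts. Motifs were searched on both strands in the central 200 bp. Fisher's exact tests (two-sided) compared shares, with Woolf intervals for odds ratios and Benjamini-Hochberg adjustment within each family. Shares have Wilson intervals and medians order-statistic intervals. The threshold was an adjusted p of 0.05. Uniqueness was the share of 32-mers found once in the genome on either strand. Scripts were tested on simulated data.

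Regions were named by rule: the 10 with the most central RUNX motifs (ties by width), the 10 widest, the 3 nearest to and 3 farthest from H3K4me1 with the 3 just outside either edge, and those at genes of the T-cell lists. One of the first 10 is not reported here. The regions, lists and tests were chosen with earlier results of these data known. Alternatives were other window sizes, distance limits of 5 and 20 kb, flanks 2 kb away or free of H3K4me1, wider H3K4me1 regions alone, autosomes, regions with at least 80% unique 32-mers, protein-coding transcripts and distance from the nearest edge. Python 3.11.15, numpy 2.4.6, scipy 1.17.1, pandas 2.3.3, numba 0.67.0 and matplotlib 3.10.9 were used.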

Additional observations from a re-analysis of the deposited data

How the results depend on the processing

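For 26 results 86 alternatives were run, of which 27 were chosen after seeing the data. Direction and side of the threshold, the value within its interval, or a count within 1.5 times the reported one held in 69, 16 moved and 1 turned direction. With H3K4me1 regions at or above their median width alone, 430 regions met the rule, and 27.1% of the original 203 had such a region on both sides. The share with a central RUNX motif was 35.0% in 100 bp, 75.9% in 400 bp and 88.2% in the whole region, while the odds ratios against flanks, marked and remote regions kept direction and passed the test under other windows, limits, autosomes and unique regions. Against remote regions under 1 kb from a TSS the RUNX motif did not pass (odds ratio 2.12, exact p = 0.157). With limits of 5 and 20 kb, 55.1% and 38.8% of regions lay under 1 kb from a TSS. H3K4me1 lay on both sides within 5 kb in 43.3% and within 20 kb in 60.1% of regions, and another Runx3-bound region within 5 kb in 6.40% and within 50 kb in 36.0%. Of the 22 motifs, 11 passed against flanks in promoter-proximal and 1 in distal regions alone, 2 and 4 against marked regions in promoter-proximal and distal regions (both of the 2 and 3 of the 4 among the 5 of all regions), and 4 and 3 against remote regions in promoter-proximal and distal regions, and the cause was not tested. The median share of unique 24-mers was 98.0%. With protein-coding transcripts the odds ratio of a TSS inside the region was 0.914 (exact p = 0.765), and the cause was not tested. No paired analysis was possible because the lists were called on joined repeats. Leaving out a repeat and a stricter score threshold were not run, since the lists give neither repeats nor scores.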
